A study of Homo sapiens with 12 samples.

Results

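The 9 genes described here encode carriers that move nutrients or ions across the lining of the intestine: SLC5A1, SLC2A2, SLC2A5, SLC3A1, SLC7A9, SLC15A1, SLC26A3, SLC46A1 and SLC7A7. They were chosen by name, with their measured levels (CPM, counts scaled to the size of each library) over the doses already known, so those levels and the differences between doses are given as a description without a test. All 9 were found by symbol among the 60675 gene IDs of the HT29 table, of which 29696 had a count in at least 1 library. Only 4 of the 9 (SLC5A1, SLC3A1, SLC46A1 and SLC7A7) passed the filter on low counts and entered the model, which tested 15374 genes.

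HT29 is a human colorectal adenocarcinoma cell line. The cells were kept for 24 h with a water extract of Aconitum carmichaeli Debeaux (ACD) at 20 µg/mL (called the low dose), 100 µg/mL (the medium dose) or 500 µg/mL (the high dose). Control cells received the vehicle, which was PBS that contained 2% DMSO. RNA was sequenced in 3 libraries per group, 12 in all, which carry no genetic change other than those of the line itself. A longer note on the treatment describes a Poria cocos extract, whereas the titles and the treatment field name ACD, and the grouping used here rests on the titles.

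Expected counts per library ran from 15941255 to 33866644 (median 23833237). No source says that the 3 libraries of a group came from separate cultures, so a p-value measures only the spread between these libraries. High-dose replicate 2 stood apart, since its log2 differences from the other high-dose libraries had an SD of 0.502 over 10626 genes, against 0.102 to 0.293 in the other libraries. High-dose values are also given without it for the tested carriers and for the related genes named below. All 12 markers of colon epithelium had a mean of 1 CPM or more over the 12 libraries. Their summed level ranged from 11374 to 13601 CPM over the libraries, with the largest means at KRT8 (6379 CPM) and KRT18 (3512 CPM). Of 12 markers of other cell types, 3 had a mean of 1 CPM or more over the 12 libraries. These were LYZ, PECAM1 and COL1A1, the last at 0.969 CPM at the high dose. LYZ was well expressed, at a mean of 1567 CPM, and the whole list summed to between 1265 and 1889 CPM. Without LYZ the list summed to between 2.55 and 4.57 CPM, with COL1A2 at 0 in every library. None of the tested markers on either list (12 and 3 genes) passed both thresholds at any dose. Among all tested genes 2.93% passed them at the high, 0.676% at the medium and 0.111% at the low dose. For so few markers 0 is near these shares, and nothing is read from it. At the high dose 6 of the 12 epithelial markers (50.0%) had an unadjusted p under 0.05 (edgeR), against 20.1% of all tested genes. Of the 12, 6 had a log2 fold change above 0 and 6 below. In bulk RNA, fewer cells of a type and less RNA per cell cannot be told apart.

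Enterocytes take up nutrients in a pair of steps, through carriers on the apical membrane that faces the lumen and through others on the basal membrane that faces the blood. SLC5A1 (SGLT1) brings in glucose and galactose together with sodium, SLC2A5 (GLUT5) brings in fructose, and SLC2A2 (GLUT2) passes sugars on to the blood. SLC3A1 is the heavy chain that brings the light chain SLC7A9 to the apical membrane, where together they take up cystine and dibasic amino acids, and SLC7A7, with its own heavy chain SLC3A2, carries dibasic amino acids out on the basal side. SLC15A1 (PEPT1) takes up short peptides and SLC46A1 takes up folate, both with protons. SLC26A3, an exchanger of chloride for bicarbonate best known in the colon, carries neither sugar nor amino acid.

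SP1, a widely expressed transcription factor, binds GC boxes, which contain the letters GGGCGG and occur in the promoters of many carrier genes. The 250 bases before the transcription start were searched on both strands for these 6 letters, as a look at the sequence next to the genes whose levels are given below. RefSeq (GRCh38.p14) gave promoters for 8 of the 9 genes, with several for SLC7A7. None was available here for SLC3A1, which was therefore not searched. The letters were found in the promoters of 3 of these 8 genes (SLC5A1, SLC15A1 and SLC46A1) and in 42.6% of the 35116 promoters in the table. Their sequences are shown 5′ to 3′ on the strand of the gene, with the motif (SLC46A1) or its reverse complement (SLC5A1 and SLC15A1) in capitals. The SLC5A1 promoter is given whole because this gene had the more abundant of the lower transcripts at the high dose, and its motif covers positions -194 to -189 from the start.
SLC5A1 promoter, chr22:32043011-32043260, plus strand: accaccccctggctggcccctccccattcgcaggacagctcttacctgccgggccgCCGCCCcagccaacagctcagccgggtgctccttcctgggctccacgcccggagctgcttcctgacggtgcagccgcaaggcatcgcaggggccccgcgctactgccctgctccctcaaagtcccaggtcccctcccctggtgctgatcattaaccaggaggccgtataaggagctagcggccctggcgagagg
SLC15A1 promoter, motif at -77 to -72, chr13:98752724-98752769, minus strand: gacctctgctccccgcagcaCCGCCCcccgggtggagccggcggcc
SLC46A1 promoter, motif at -169 to -164, chr17:28406356-28406401, minus strand: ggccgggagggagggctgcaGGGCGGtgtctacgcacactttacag
Positions count from the RefSeq starts. For SLC46A1 that start lies inside the gene span given below, whose 5′ end is at chr17:28407197, so its stretch lies within that span. A match is a description of the letters, not a bound site. The 3 genes that hold it had different levels in HT29: SLC15A1 had 4 counts in all, and SLC5A1 and SLC46A1 had vehicle means of 18.5 and 21.6 CPM.

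The levels of the carriers in vehicle-treated cells spanned a wide range. Per kilobase of the canonical transcript, the vehicle level was 12.9 ± 0.42 CPM per kb (SD, n = 3) for the basal carrier SLC7A7. It was 3.82 ± 0.251 CPM per kb for SLC5A1 and 3.32 ± 0.134 CPM per kb for SLC46A1. It was 1.15 ± 0.135 CPM per kb for SLC3A1. Thus the basal amino acid exporter stood 3.38-fold above the glucose carrier and 11.2-fold above the cystine carrier subunit. SLC5A1 and SLC46A1 were close, and their order depends on the transcript lengths used (4832 and 6492 bases). Per kb their vehicle libraries did not overlap (3.53 to 3.99 against 3.17 to 3.43 CPM per kb). In CPM the order was reversed, also without overlap (17.1 to 19.3 for SLC5A1 against 20.6 to 22.3 for SLC46A1). The light chain SLC7A9 was at 0.151 ± 0.024 CPM per kb, so that its heavy chain SLC3A1 was 7.62-fold higher. SLC2A2 followed at 0.0441 CPM per kb, and its vehicle libraries overlapped with those of SLC2A5 (0.00989 CPM per kb), which in turn overlapped with those of SLC15A1 (0.00647 CPM per kb). SLC26A3 was at 0. Among other carriers, SLC2A1 (GLUT1), the glucose carrier of most cultured cells, was at 157 CPM per kb, 41.1-fold above SLC5A1, and SLC3A2, the heavy chain partner of SLC7A7, was at 95.2 CPM per kb, 82.8-fold above SLC3A1.

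SLC5A1 (ENSG00000100170; GRCh38 chr22:32043261-32113029, plus strand) was lower at the medium dose and lower still at the high dose. The vehicle libraries had 17.1, 19.0 and 19.3 CPM. The low-dose libraries had 18.3, 17.7 and 20.6 CPM. Vehicle and low dose overlapped for this gene. The medium-dose libraries had 15.1, 14.7 and 15.1 CPM. The high-dose libraries had 9.95, 10.5 and 11.6 CPM. All libraries of the medium and the high dose lay below every vehicle library, and all high-dose libraries lay below every medium-dose library. The means were 18.5 ± 1.21, 18.9 ± 1.55, 15.0 ± 0.245 and 10.7 ± 0.814 CPM (SD, n = 3) from vehicle to high dose, from 149 to 627 counts per library. The log2 fold change against the vehicle was -0.79 (SE 0.09) at the high dose, a level 0.58 times that of the vehicle. It was -0.30 (SE 0.09) at the medium dose and 0.03 (SE 0.09) at the low dose. High-dose replicate 2 was in the middle of its group for this gene, and without it the high-dose log2 fold change was -0.77.

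SLC3A1 (ENSG00000138079; GRCh38 chr2:44275458-44321494, plus strand), the apical cystine carrier subunit, had the lowest ratio to the vehicle among the 4 tested carriers. The vehicle libraries had 3.19, 3.15 and 3.87 CPM, and the low-dose libraries had 3.26, 2.82 and 2.86 CPM. The medium-dose libraries had 1.47, 2.32 and 2.21 CPM. The high-dose libraries had 1.31, 1.20 and 0.984 CPM. Vehicle and low dose overlapped, while the medium and high doses lay wholly below the vehicle, and all high-dose libraries were below those of the medium dose. The means were 3.40 ± 0.401, 2.98 ± 0.244, 2.00 ± 0.462 and 1.16 ± 0.164 CPM (SD, n = 3). Each value rests on few reads, from 104 counts in vehicle replicate 2 down to 17 in high-dose replicate 2. The log2 fold change was -1.56 (SE 0.20) at the high dose, or 0.338 times the vehicle level, -0.75 (SE 0.18) at the medium dose and -0.19 (SE 0.17) at the low dose. Without high-dose replicate 2 it was -1.59 at the high dose. SLC3A1 overlaps PREPL, a peptidase-like gene on the opposite strand, named here for that overlap. GENCODE 44 also places a protein-coding gene, ENSG00000285542, over it on the same strand, which was not analysed here. The library kit keeps the strand, but the strand setting of the counting is not given in the sources used here. PREPL had 77.5 to 95.5 CPM over the libraries, and its mean was 85.6 CPM in the vehicle and 94.4 CPM at the high dose, where SLC3A1 was lowest. Whether reads of either gene enter the SLC3A1 values was not tested.

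SLC46A1 (ENSG00000076351; GRCh38 chr17:28394642-28407197, minus strand), the folate carrier, overlapped with the vehicle at every dose. The vehicle libraries had 21.9, 22.3 and 20.6 CPM, and the low-dose libraries had 22.0, 24.1 and 20.1 CPM. The medium-dose libraries had 25.3, 21.5 and 25.7 CPM. The high-dose libraries had 26.7, 18.0 and 27.2 CPM. At the high dose replicate 2 was the lowest of all 12 libraries and the other two were the highest. The means were 21.6 ± 0.867, 22.0 ± 2.01, 24.2 ± 2.30 and 24.0 ± 5.19 CPM (SD, n = 3). The log2 fold change was 0.16 (SE 0.14) at the high dose, 0.16 (SE 0.14) at the medium dose and 0.03 (SE 0.14) at the low dose, and without high-dose replicate 2 it was 0.32 at the high dose. The gene shares its locus with SARM1, an NAD-cleaving enzyme gene on the opposite strand, named here for that overlap, which was at 10.3 to 15.8 CPM and was likewise lowest in high-dose replicate 2.

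SLC7A7 (ENSG00000155465; GRCh38 chr14:22773222-22829820, minus strand), the basal exporter, stayed near its vehicle level. The vehicle libraries had 26.4, 26.3 and 27.9 CPM, and the low-dose libraries had 26.2, 25.8 and 28.5 CPM. The medium-dose libraries had 26.1, 25.7 and 25.4 CPM. The high-dose libraries had 25.3, 31.6 and 28.6 CPM. The medium-dose libraries lay just under the vehicle without overlap, and the low and high doses overlapped with it. The means were 26.9 ± 0.875, 26.8 ± 1.47, 25.7 ± 0.352 and 28.5 ± 3.17 CPM (SD, n = 3). The log2 fold change was 0.08 (SE 0.08) at the high dose, -0.06 (SE 0.08) at the medium dose and 0.00 (SE 0.08) at the low dose. High-dose replicate 2 was the highest library, and without it the high-dose log2 fold change was 0.01.

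**Figure D1:**
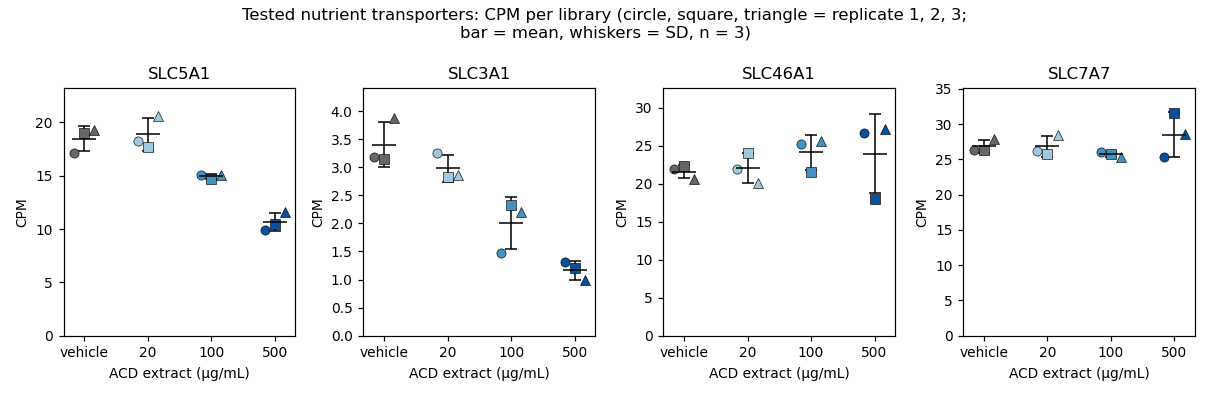
CPM (vertical axes, starting at 0) of SLC5A1, SLC3A1, SLC46A1 and SLC7A7 in each library by ACD dose in µg/mL, with symbols for replicates, bars for means and whiskers for SD (n = 3). SLC5A1 and SLC3A1 step down at 100 and 500 µg/mL, to means of 10.7 and 1.16 CPM, whereas SLC46A1 and SLC7A7 overlap with the vehicle at 500 µg/mL.

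The thresholds of the study are an adjusted p below 0.05 and more than 1.5-fold difference from the vehicle. They were applied here to an edgeR fit, whereas the study used DESeq2. The shares below are therefore those of this fit, not the counts that the study reported, which were lower for HT29 at the high dose. As a count only, 2 of the 4 tested carriers (SLC5A1 and SLC3A1, both lower) were past them at the high dose. Among all tested genes 2.93% passed them at that dose, and 1.68% did so in the lower direction. Since the carriers were selected on these levels, the count is no test of them and nothing is read from it. At the medium dose 0 of the 4 passed both thresholds, where the share of all tested genes was 0.676%. At the low dose 0 passed, where the share was 0.111%.

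The other 5 carriers were at trace levels, were left out of the model and are given as counts, with no fold change. A level of 3 counts, set here as the floor for what a count of 0 may hide, was 0.0909 to 0.212 CPM depending on the library, for counting error only. SLC7A9 (ENSG00000021488; chr19:32830509-32869767, minus strand), the light chain partner of SLC3A1, had a count in all 12 libraries. It had 5, 10 and 5 counts in the vehicle, 8, 9 and 5 at 20 µg/mL, 1, 2 and 8 at 100 µg/mL, and 7, 2 and 10 at 500 µg/mL. These groups overlapped, with mean levels of 0.266 CPM in the vehicle and 0.255 CPM at the high dose, so that no step down like that of SLC3A1 was detectable at this depth. SLC2A2 (ENSG00000163581; chr3:170996347-171026743, minus strand), the basal sugar carrier, had 2, 3 and 5 counts in the vehicle and 1, 0 and 8 at the high dose. Its sums were 10, 8, 12 and 9 counts from vehicle to high dose, and 7 of the 12 libraries were at or under 3 counts.

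The fructose carrier SLC2A5 (ENSG00000142583; chr1:9035106-9088478, minus strand) was at 0 in 9 libraries and had 6 counts in all, 4 of them in vehicle replicate 2. The peptide carrier SLC15A1 (ENSG00000088386; chr13:98683801-98752672, minus strand) was at 0 in 9 libraries too, with 4 counts in all and at most 2 in a library. SLC26A3 (ENSG00000091138; chr7:107765467-107803225, minus strand), the colonic anion exchanger, had 0 counts in all 12 libraries. All high-dose libraries were at 0 for SLC2A5, SLC15A1 and SLC26A3, and with so few counts in the vehicle a difference between doses could not be seen.

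**Figure D2:**
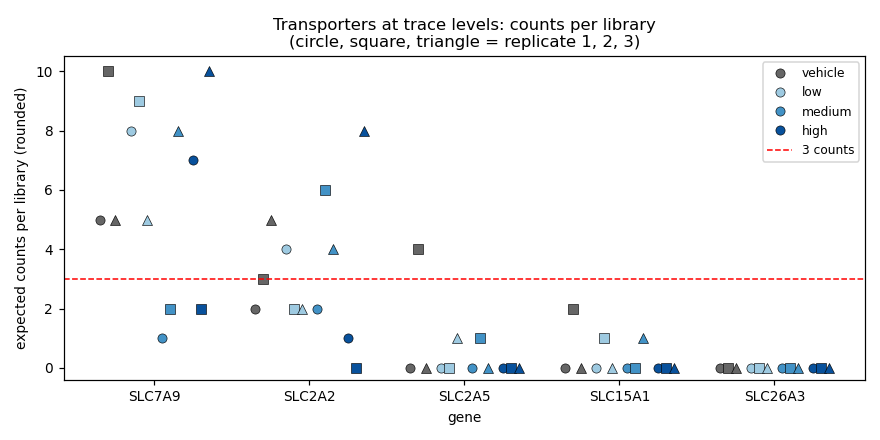
Rounded expected counts per library (vertical axis) of the 5 carriers at trace levels, with colours for the groups, symbols for replicates and a dashed line at 3 counts. SLC7A9 reaches at most 10 counts and SLC2A2 at most 8, SLC2A5 and SLC15A1 are at 0 in 9 of 12 libraries each, and SLC26A3 is at 0 throughout.

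To set these carriers beside the rest of the absorptive machinery, 114 other genes in 8 lists were examined: other sugar, amino acid, vitamin, mineral and lipid carriers, ion transporters and scaffolds that carriers work with, brush border hydrolases, and transcription factors or glucose sensors. The model included 81 of them. At 500 µg/mL, 5 of the 81 passed both thresholds, 1 upregulated (SLC3A2) and 4 downregulated (SLC12A2, KCNE3, TXNIP and ARRDC4). Among all tested genes 2.93% passed both at that dose. An unadjusted p under 0.05 was found for 35 of the 81 (43.2%), against 20.1% of all tested genes. The lists were chosen with earlier results known, so these shares are no test of them. With the adjusted p alone, 14 of the 81 passed, where 5.77% of all tested genes did (887 genes). The median log2 fold change over the 81 genes was 0.01, with 42 above 0 and 39 below, against 0.00523 over all tested genes. Without high-dose replicate 2 the count at the high dose was 7, as SLC23A2, ABCC3 and CA2 then passed and SLC12A2 did not. At the medium dose none passed both thresholds with edgeR and KCNE3 passed with the adjusted p alone, while 14 (17.3%) had an unadjusted p under 0.05, against 11.7% of all tested genes. With DESeq2 the count at the medium dose was 1 (TXNIP). At the low dose the count was 0 by either tool, with 2 genes (2.47%) at an unadjusted p under 0.05, against 7.95% of all tested genes.

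**Figure D3:**
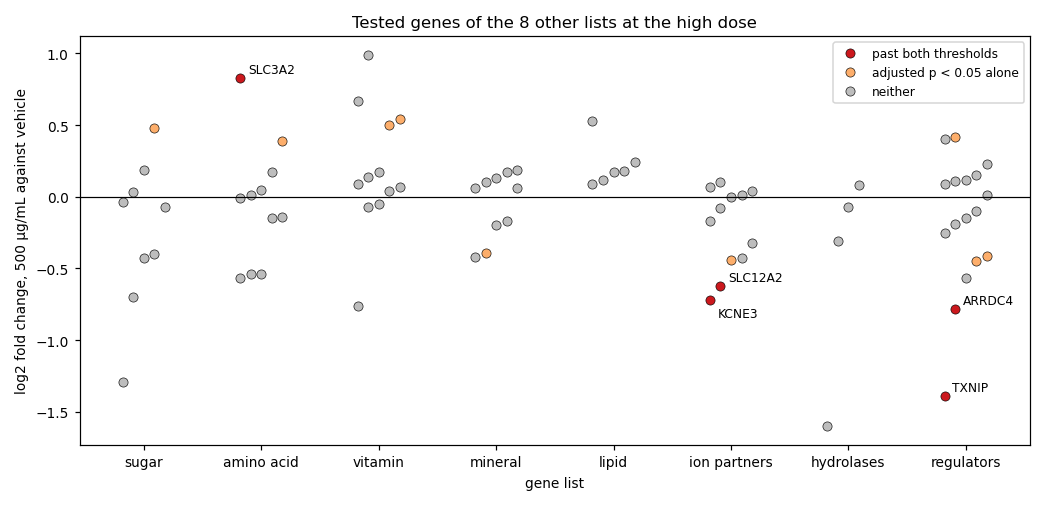
Log2 fold change at 500 µg/mL against the vehicle (vertical axis) for the 81 tested genes of the 8 lists (horizontal axis), each point a gene, red where both thresholds were passed and orange where only the adjusted p was. The points lie on both sides of 0, with 42 above and 39 below, and the 5 red points are SLC3A2 above and SLC12A2, KCNE3, ARRDC4 and TXNIP below.

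Among the partners of the amino acid carriers, SLC3A2, the heavy chain that brings SLC7A7 and related light chains to the basal membrane, was upregulated at the high dose. It had 198, 172 and 168 CPM in the vehicle and 297, 375 and 286 CPM at the high dose. The groups did not overlap, and the log2 fold change was 0.83 (SE 0.11, adjusted p = 0.000598, edgeR), or 0.70 without high-dose replicate 2. Its light chain SLC7A7 was at 0.08 (SE 0.08) in the same fit, and the apical heavy chain SLC3A1 was at -1.56 (SE 0.20). Thus the heavy chains of the apical and the basal system stood on opposite sides of the vehicle. Of the 11 tested genes of the amino acid list, SLC3A2 was the only gene past both thresholds, and the list median was -0.01.

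Of the 9 tested genes of the sugar list, none passed both thresholds, and the list median was -0.07. SLC2A1, which had the smallest p of that list, had 543, 524 and 531 CPM in the vehicle, 643, 612 and 653 CPM at the medium dose and 776, 696 and 756 CPM at the high dose. The high-dose libraries lay above all others, with a log2 fold change of 0.48 (SE 0.07, adjusted p = 0.00149, edgeR), which is 1.39-fold and under the fold threshold, as was the 0.53 without high-dose replicate 2. SLC5A1, the sodium-coupled glucose carrier, was at -0.79 (SE 0.09) in the same libraries.

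TXNIP and ARRDC4, related arrestin-like genes whose expression responds to glucose and whose proteins limit glucose uptake, were both downregulated at the high dose. TXNIP had 55.5, 54.3 and 59.1 CPM in the vehicle, 36.0, 34.2 and 36.3 CPM at the medium dose and 16.6, 28.6 and 20.0 CPM at the high dose. These 3 groups did not overlap, and the log2 fold change was -1.39 (SE 0.15, adjusted p = 0.000171, edgeR) at the high dose and -0.66 (SE 0.14, adjusted p = 0.0551) at the medium dose. ARRDC4 reached -0.78 (SE 0.13, adjusted p = 0.00342) at the high dose, and this call was lost when edgeR was run on the vehicle and the high dose only (adjusted p = 0.0553). Without high-dose replicate 2 the high-dose log2 fold changes were -1.61 for TXNIP and -0.90 for ARRDC4. The regulator list had a median of -0.10 over 17 tested genes.

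Some transcription factors of that list were named after their values were seen. SP1, which binds the motif shown above, had 136 to 163 CPM in the vehicle and 121 to 188 CPM at the high dose, which overlapped (log2 fold change 0.09, SE 0.14, adjusted p = 0.785). HNF4G was lower in all 3 high-dose libraries (-0.41, SE 0.06, adjusted p = 0.00188, under the fold threshold), and HNF4A was at -0.25 (SE 0.12, adjusted p = 0.276). High-dose replicate 2 was the lowest library for HNF4A, at 62.6 CPM. Without it the log2 fold changes were 0.27 for SP1 (adjusted p = 0.0301), -0.41 for HNF4G and -0.11 for HNF4A. Whether any of these factors acts on the carrier genes was not tested.

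Ion transport genes gave 2 downregulated members among 12 tested, with a list median of -0.13. Among all tested genes 1.68% were past both thresholds in the lower direction at the high dose. KCNE3, a potassium channel subunit of the basal membrane of colonic cells, had 65.4, 61.2 and 63.0 CPM in the vehicle and 37.4, 40.8 and 36.9 CPM at the high dose, without overlap (-0.72, SE 0.07, adjusted p = 9.38e-05, and -0.76 without high-dose replicate 2). SLC12A2 (NKCC1), the basal sodium, potassium and chloride cotransporter that feeds chloride secretion, had 664, 719 and 741 CPM in the vehicle and 479, 397 and 501 CPM at the high dose (-0.62, SE 0.10, adjusted p = 0.00235). Its log2 fold change without high-dose replicate 2 was -0.53, under the fold threshold. CFTR, the apical chloride channel, named after its values were seen, was lower by less than the fold threshold (-0.44, SE 0.09, adjusted p = 0.00994, and -0.38 without that library). CA2, a carbonic anhydrase, likewise named after its values were seen, was at -0.43, and at -0.59 (adjusted p = 0.000235) without that library.

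In the remaining lists no gene passed both thresholds at any dose with all libraries. The vitamin C carrier SLC23A2 had the smallest p among 12 tested vitamin carriers, with a log2 fold change of 0.54 (SE 0.13, adjusted p = 0.0277) beside 0.16 (SE 0.14) for the folate carrier SLC46A1, and the list median was 0.12. The iron exporter SLC40A1 was at -0.39 (SE 0.09, adjusted p = 0.0224) among 10 tested mineral carriers, whose median was 0.06. SCARB1, a receptor for lipoproteins, was at 0.24 (SE 0.08, adjusted p = 0.0953) among 6 tested lipid genes, whose median was 0.18. The sucrase SI, whose products SLC5A1 and SLC2A5 take up, was at -1.60 (SE 0.51, adjusted p = 0.0958), from 5, 16 and 12 counts in the vehicle and 2, 1 and 7 at the high dose. The median over the 4 tested hydrolases was -0.19. Without high-dose replicate 2 the log2 fold changes were 0.67 for SLC23A2 (adjusted p = 5.47e-05, past both thresholds), -0.49 for SLC40A1, 0.32 for SCARB1 (adjusted p = 0.00062) and -1.41 for SI (adjusted p = 0.0802).

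**Figure D4:**
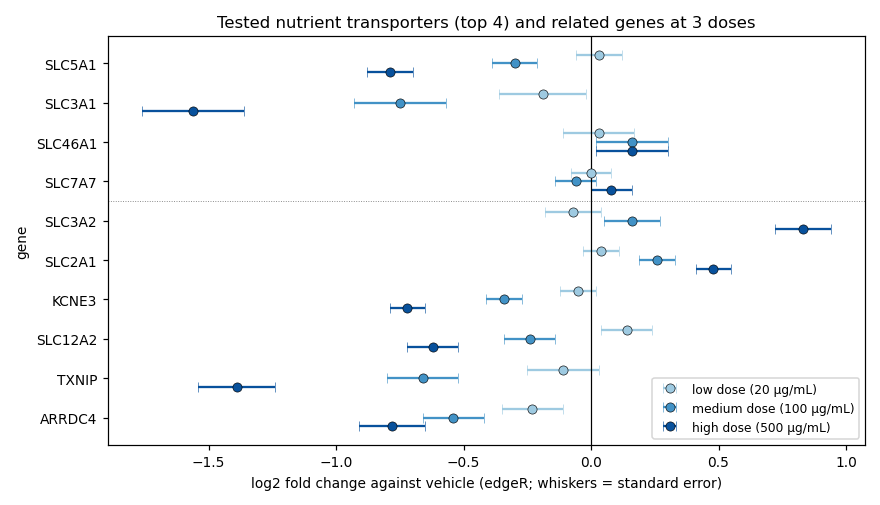
Log2 fold change against the vehicle (horizontal axis, edgeR) with its SE as whiskers, for the 4 tested carriers above the dotted line and 6 related genes below it, with lighter to darker points for 20, 100 and 500 µg/mL. SLC5A1, SLC3A1, KCNE3, SLC12A2, TXNIP and ARRDC4 lie further below 0 at 500 than at 100 µg/mL, SLC3A2 and SLC2A1 lie above 0 at 100 and 500 µg/mL, and SLC46A1 and SLC7A7 stay within 0.16 of 0.

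**Figure D5:**
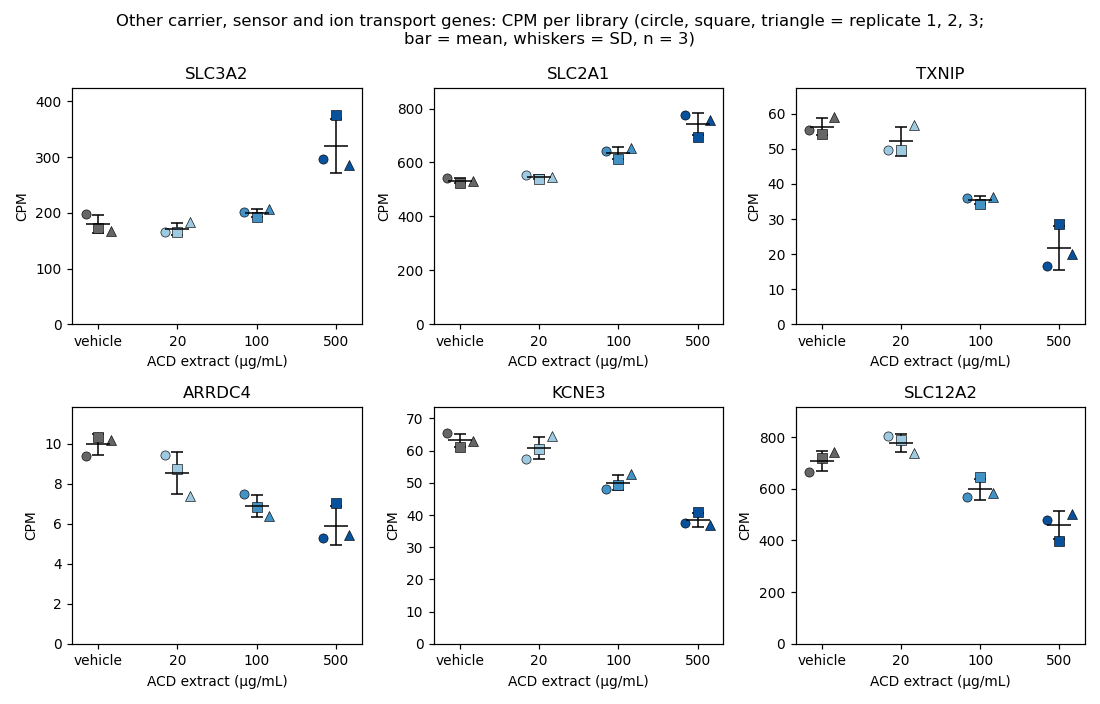
CPM (vertical axes, starting at 0) of SLC3A2, SLC2A1, TXNIP, ARRDC4, KCNE3 and SLC12A2 in each library by ACD dose in µg/mL, with symbols for replicates, bars for means and whiskers for SD (n = 3). For each of the 6 genes the 3 high-dose libraries lie on the same side of all 3 vehicle libraries, as with TXNIP at 16.6 to 28.6 CPM against 54.3 to 59.1 CPM. The genes were picked by their results at the high dose, so this separation is no further result.

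The genes whose levels ran most like those of the 2 lower carriers were ranked among 10626 genes with a mean of 5 CPM or more, by the Pearson correlation of log2 CPM over the 12 libraries. This is a description without a test, and the libraries share the 4 groups, so that any gene that steps with the dose scores high. Closest to SLC5A1 were SLITRK6 (r = 0.981), the membrane protease TMPRSS2 (0.980), the putative amino acid carrier SLC38A11 (0.980), the metalloreductase STEAP4 (0.971) and CRYZL2P (0.968). Without high-dose replicate 2 these values were between 0.959 and 0.977. In the 9 libraries without the high dose they were between 0.858 and 0.958. Their own log2 fold changes at the high dose ran from -1.14 for SLC38A11 to -0.42 for TMPRSS2, beside -0.79 for SLC5A1. Among those closest to SLC3A1 were RABGAP1L (0.964), the mucin-type glycosyltransferase GALNT4 (0.963), the colonic NADPH oxidase NOX1 (0.956) and the surface glycoprotein CD24 (0.956). Their high-dose log2 fold changes ran from -1.26 for NOX1 to -0.46 for RABGAP1L, all nearer to 0 than the -1.56 of SLC3A1.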

How the data were processed

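RNA of 12 HT29 libraries was sequenced by the authors as 100 bp paired-end reads from a directional mRNA library kit. According to the submitters' processing notes and the paper's methods, the authors used FastQC 0.11.9, Trim Galore 0.6.5, STAR 2.7.3a and RSEM 1.3.3 on GRCh38 (versions from the notes). The deposited file holds RSEM's expected counts for each Ensembl gene without normalization, of which 8.73% were not whole. They were rounded here. Symbols, positions and canonical transcripts came from GENCODE 44, which matched 93.21% of the IDs.

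Counts were filtered with filterByExpr, scaled by TMM and tested with edgeR's robust quasi-likelihood fit (edgeR 4.0.16 in R 4.3.3) on all 12 libraries together, with the 4 groups as the only terms. P-values were adjusted by Benjamini-Hochberg over the 15374 genes tested. A gene was called where its adjusted p was below 0.05 and it differed more than 1.5-fold. CPM used TMM-scaled library sizes, and log2 CPM for the ranking of like genes used a pseudocount of 0.5. The common dispersion was 0.0126, a biological coefficient of variation of 11.2%. Antisense and overlapping genes may share reads if the counting ignored the strand. No 2 libraries of a group were duplicates (chi-square per gene 3.65 to 71.7). The tests were first run on simulated counts.

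The carriers and the 8 gene lists were chosen with earlier results of these data known. The genes named are the 9 carriers, each list's called genes or, where it had none, its gene of smallest high-dose p, and the 5 genes most like SLC5A1 and SLC3A1. Others are marked as named after their values were seen. Some genes of the lists and of this ranking are not reported here. The alternatives were DESeq2 1.42.0, edgeR on the vehicle and 1 dose, the size factors of DESeq2 in edgeR, no filter, at least 10 counts in every library, each of the libraries left out, a block for the replicate number, and the adjusted p with no minimum fold change.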

Additional observations from a re-analysis of the deposited data

How the results depend on the processing

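At the high dose the 451 genes called (193 up, 258 down) became 172 with edgeR on the vehicle and 1 dose, 887 with no minimum fold change, and 310 to 768 with a library left out, the highest without high-dose replicate 2. At the medium dose the 104 called became 191 on the vehicle and 1 dose and 52 to 249 with a library left out, with 249 without high-dose replicate 2, 52 without vehicle replicate 2, 69 without vehicle replicate 1, 63 without medium-dose replicate 1 and 59 without medium-dose replicate 3. At the low dose the 17 called became 50 with DESeq2, 51 on the vehicle and 1 dose, 34 with no filter, and 10 (without vehicle replicate 2) to 109 (without high-dose replicate 2). Of the other pathway genes, the 5 called at the high dose became 3 on the vehicle and 1 dose, 14 with no minimum fold change and 7 without high-dose replicate 2, where SLC23A2, ABCC3 and CA2 were added and SLC12A2 was lost. At the medium dose their count went from 0 to 1 with DESeq2, on the vehicle and 1 dose, with no filter and with at least 10 counts in every library (TXNIP each time), to 1 with no minimum fold change (KCNE3), and to 0 to 1 with a library left out (TXNIP without high-dose replicate 1 or 2). The carriers past both thresholds at the medium dose went from 0 to 1 (SLC3A1) with DESeq2 and on the vehicle and 1 dose, and to 0 to 1 with a library left out. SLC12A2 at the high dose lost its call on the vehicle and 1 dose (adjusted p = 0.0808) and, through a fold under 1.5, without vehicle replicate 3 or high-dose replicate 2. The cause of these changes was not tested. For the 5 pathway genes called at the high dose, 86 of 90 values under the alternatives kept their side of the thresholds at the high dose, 84 of 90 at the medium dose and 90 of 90 at the low dose. Direction was the same throughout at the high and medium doses for these genes and the 4 tested carriers. At the low dose 8 values of SLC5A1, SLC46A1 or SLC7A7 and 1 of SLC3A2 changed sign, none above 0.0384 in size afterwards. The 5 genes were picked by their high-dose calls, and the carriers were chosen with their levels known. The alternatives also refit the same libraries, so kept sides and directions are no further support for these differences.

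Same-numbered libraries showed no more tendency to deviate together than others (r from -0.264 to 0.139 in 18 pairs, against -0.24 to 0.312 in 36 other pairs). These are deviations from means of 3 libraries, so they cannot exclude a pairing by number. With the replicate number as a block, the calls were 379, 75 and 17 genes at the high, medium and low dose, 5 other pathway genes at the high dose and 0 at the medium and low doses, and 2 carriers at the high dose and 0 at the others. Depth limits SLC7A9, SLC2A2, SLC2A5, SLC15A1 and SLC26A3, which were too low for a comparison of doses, and SLC3A1 rests on at most 104 counts in a library.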

Other observations

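Some carriers and factors of the lists that the comparisons above do not name passed the adjusted p at the high dose with a fold change under 1.5, and are given here after their values were seen. SLC1A5, the carrier of glutamine, had 830 to 847 CPM in the vehicle and 926 to 1190 CPM at the high dose (log2 fold change 0.39, SE 0.10, adjusted p = 0.0418, edgeR). ABCC3, a basal exporter of organic anions that was listed with the vitamin carriers, had 417 to 462 CPM in the vehicle and 485 to 710 CPM at the high dose (0.50, SE 0.12, adjusted p = 0.0336). KLF4, a transcription factor of differentiated epithelium, had 7.78 to 8.04 CPM in the vehicle and 9.62 to 11.7 CPM at the high dose (0.42, SE 0.10, adjusted p = 0.0347). Without high-dose replicate 2 the log2 fold changes were 0.50, 0.66 and 0.42, of which that of ABCC3 (adjusted p = 8.52e-07) was past both thresholds. For each of these 3 genes all high-dose libraries lay above all vehicle libraries, which adds nothing to the adjusted p by which they were picked.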
